A study of Homo sapiens with 9 samples.

Results

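The genes described here encode the subunits of the proteasome, with its activators and the assembly chaperones that carry subunit symbols. They were chosen by symbol and by no measured value. Of 19834 protein-coding genes in the GENCODE annotation of GRCh37, 43 had a symbol made of PSMA, PSMB, PSMC, PSMD or PSME followed by a number. Their spans ran from 1849 to 138762 bp and lay on 16 chromosomes.

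The proteasome is the protease that degrades proteins tagged with ubiquitin. Its 20S core is a barrel of alpha and beta rings, in which some beta subunits carry the catalytic threonine, and the 19S cap unfolds substrates with a ring of ATPases and recognizes and removes ubiquitin with its other subunits. The core and cap genes are housekeeping genes in most human cells, a few beta subunits are exchanged for interferon-induced ones in the immunoproteasome, and the transcription factor NRF1 (NFE2L1) raises subunit transcription through antioxidant response elements when proteasome activity is short.

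RNA polymerase II (RNAPII) was mapped by chromatin immunoprecipitation and sequencing in the human embryonic kidney line HEK293 to ask how the helicase RECQL5 affects polymerase along genes. In the hairpin arm the cells were infected with lentivirus that carried either of a pair of short hairpin RNAs (shRNAs) that target RECQL5, named shRNA5 and shRNA7, or a control, which the labels call a control shRNA and the methods an empty vector. In the doxycycline arm HEK293 T-REx cells, transfected with a plasmid that encodes full-length RECQL5 behind a doxycycline-inducible promoter, received 0.0 or 1.0 ng/ml doxycycline. Each of these 5 groups was 1 RNAPII library, so no difference below has a replicate check and no p-value is given. The 4 IgG libraries of the series entered the peak calls as background, 1 for each hairpin-arm list and 1 shared by both doxycycline-arm lists, and are not described here. The T-REx cells were selected with Zeocin, and whether they were 1 clone is not stated.

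The peak lists held 5287 (control hairpin), 23698 (shRNA5) and 32124 (shRNA7) peaks in the hairpin arm, and 47060 and 33900 peaks without and with doxycycline. Tags within peaks summed to between 842310 and 6698771 per list, and the smallest peak of a list held between 9 and 35 tags. The methods state that compared samples had similar numbers of reads, with more in the hairpin arm than in the doxycycline arm. The total of each library was not used here, so tags were not scaled and lists were compared within an arm only. VIM, an intermediate filament gene that HEK293 cells express, had a peak at its start in all 5 lists, whereas the kidney and neuronal genes PAX2 and INA had one only without doxycycline and only in the doxycycline arm, respectively. PTPRC, ALB, HBB and CD3E, markers of leukocytes, hepatocytes, erythroid cells and T cells, had none in any list. RECQL5 itself had no peak with the control hairpin or upon shRNA5, 2 peaks upon shRNA7 and 8 in each list of the doxycycline arm, and these peaks do not measure the RECQL5 protein.

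Many of the start peaks described below cover the DNA just before a start, so 8 such stretches are printed first. PSMA3, PSMB2 and PSMD8 ranked highest in tags of their subfamily on average over the lists (PSMB2 level with PSMB4), PSMA8 and PSMB9 are tissue-restricted or inducible, and PSMB3, PSMC4 and PSMD3 were added after their values were seen because their peaks came and went between lists. Each is the part of the 250 bases before the RefSeq start (table build GRCh38.p14) that no annotated exon covers, found by exact match in GRCh37. Capitals mark the letters of the antioxidant response element core (TGACNNNGC), an ETS core (CCGGAAG) or a CCAAT box (CCAAT), read on both strands. The positions were PSMA3 at chr14:58711311-58711560 on the plus strand, PSMB2 at chr1:36107128-36107377 on the minus strand, PSMD8 at chr19:38864961-38865202 on the plus strand, PSMA8 at chr18:23713583-23713815 on the plus strand, PSMB9 at chr6:32821719-32821924 on the plus strand, PSMB3 at chr17:36908744-36908993 on the plus strand, PSMC4 at chr19:40476822-40477071 on the plus strand and PSMD3 at chr17:38136810-38137059 on the plus strand.
PSMA3: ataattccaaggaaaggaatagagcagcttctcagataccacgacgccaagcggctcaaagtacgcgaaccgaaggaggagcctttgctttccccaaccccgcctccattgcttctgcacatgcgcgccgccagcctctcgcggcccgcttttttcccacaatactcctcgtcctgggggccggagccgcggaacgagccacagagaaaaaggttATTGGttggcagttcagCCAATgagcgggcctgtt
PSMB2: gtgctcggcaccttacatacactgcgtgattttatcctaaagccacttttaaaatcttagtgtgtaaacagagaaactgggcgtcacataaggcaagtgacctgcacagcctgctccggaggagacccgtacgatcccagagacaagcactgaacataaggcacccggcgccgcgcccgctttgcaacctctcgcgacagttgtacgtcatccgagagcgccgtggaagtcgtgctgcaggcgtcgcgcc
PSMD8: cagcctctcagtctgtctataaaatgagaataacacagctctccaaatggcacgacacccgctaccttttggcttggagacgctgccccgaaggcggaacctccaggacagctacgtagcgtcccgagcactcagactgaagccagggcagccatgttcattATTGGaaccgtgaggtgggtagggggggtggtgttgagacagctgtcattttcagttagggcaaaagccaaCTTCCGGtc
PSMA8: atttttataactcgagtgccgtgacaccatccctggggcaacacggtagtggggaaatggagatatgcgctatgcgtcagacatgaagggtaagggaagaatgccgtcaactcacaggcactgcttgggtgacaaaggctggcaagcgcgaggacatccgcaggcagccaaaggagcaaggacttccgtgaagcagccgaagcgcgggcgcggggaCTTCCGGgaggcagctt
PSMB9: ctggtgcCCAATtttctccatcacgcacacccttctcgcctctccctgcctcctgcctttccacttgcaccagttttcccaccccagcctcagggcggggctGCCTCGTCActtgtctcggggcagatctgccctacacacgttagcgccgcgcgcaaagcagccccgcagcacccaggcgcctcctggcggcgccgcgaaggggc
PSMB3: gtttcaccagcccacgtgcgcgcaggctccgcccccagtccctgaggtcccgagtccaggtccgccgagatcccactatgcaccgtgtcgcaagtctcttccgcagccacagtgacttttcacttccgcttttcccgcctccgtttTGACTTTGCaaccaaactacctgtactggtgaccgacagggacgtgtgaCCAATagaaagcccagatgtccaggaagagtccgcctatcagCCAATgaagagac
PSMC4: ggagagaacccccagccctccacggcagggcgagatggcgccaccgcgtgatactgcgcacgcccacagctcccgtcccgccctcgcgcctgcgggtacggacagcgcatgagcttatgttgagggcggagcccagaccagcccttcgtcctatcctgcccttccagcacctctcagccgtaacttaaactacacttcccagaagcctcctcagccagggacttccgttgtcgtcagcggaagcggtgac
PSMD3: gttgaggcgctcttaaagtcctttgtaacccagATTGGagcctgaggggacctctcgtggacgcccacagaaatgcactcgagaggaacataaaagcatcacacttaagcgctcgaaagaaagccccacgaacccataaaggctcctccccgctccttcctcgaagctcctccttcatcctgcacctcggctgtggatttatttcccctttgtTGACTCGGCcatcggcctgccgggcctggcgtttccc

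RNAPII peaks covered the printed stretches of PSMA3 and PSMB2 fully in all 5 lists. In PSMB3 the stretch was fully covered in every list but that of the control hairpin, and in PSMC4 and PSMD8 in every list but that of shRNA7. The stretch of PSMD3 was bare in both the control and the shRNA7 list. That of PSMA8 was bare in every list, and that of PSMB9 was fully covered upon shRNA5, 22.8% covered without doxycycline and bare otherwise.

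Of the 43 genes, 38 had an entry in the RefSeq promoter table. Over the full window, 250 bases before to 50 after the start, the antioxidant response element core was found in 11 of these 38 (28.9%) and in 14.3% of all 15281 coding promoters in the table. The ETS core was found in 12 members (31.6%) against 14.4% of all, the CCAAT box in 18 (47.4%) against 36.6%, and the 8-letter core of the site of the respiratory factor also named NRF1, CGCATGCG, in 1 member (PSMA4, 2.63%) against 2.87%. These are matches of letters and not sites of binding. The median GC content was 61.7% in the members and 63.0% in all.

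A peak was assigned to a start when any base of it lay within 500 bp of the start of a protein-coding transcript of the gene. Such a start peak was present in 16 of the 43 proteasome genes (37.2%, 95% Wilson interval 24.4% to 52.1%) with the control hairpin, where 17.2% of all protein-coding genes had one. It was present in 37 (86.0%, interval 72.7% to 93.4%) upon shRNA5 and in 36 (83.7%, interval 70.0% to 91.9%) upon shRNA7, against 44.4% and 52.8% of all genes. Without doxycycline 39 members had one (90.7%, interval 78.4% to 96.3%) and with doxycycline 38 (88.4%, interval 75.5% to 94.9%), against 56.9% and 48.2% of all genes. The intervals cover counting error only. Tags were counted within called peaks only, so a count given as none means that no peak was called. It does not mean that no reads lay there. Counting the canonical start of each gene alone, an alternative added after the data were seen, gave 16, 35 and 34 members in the hairpin arm and 39 and 37 in the doxycycline arm. Keeping only peaks with a significance score (−10 times the log10 of the p-value) of at least 100 left 8 members with a start peak in the control list.

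**Figure D1:**
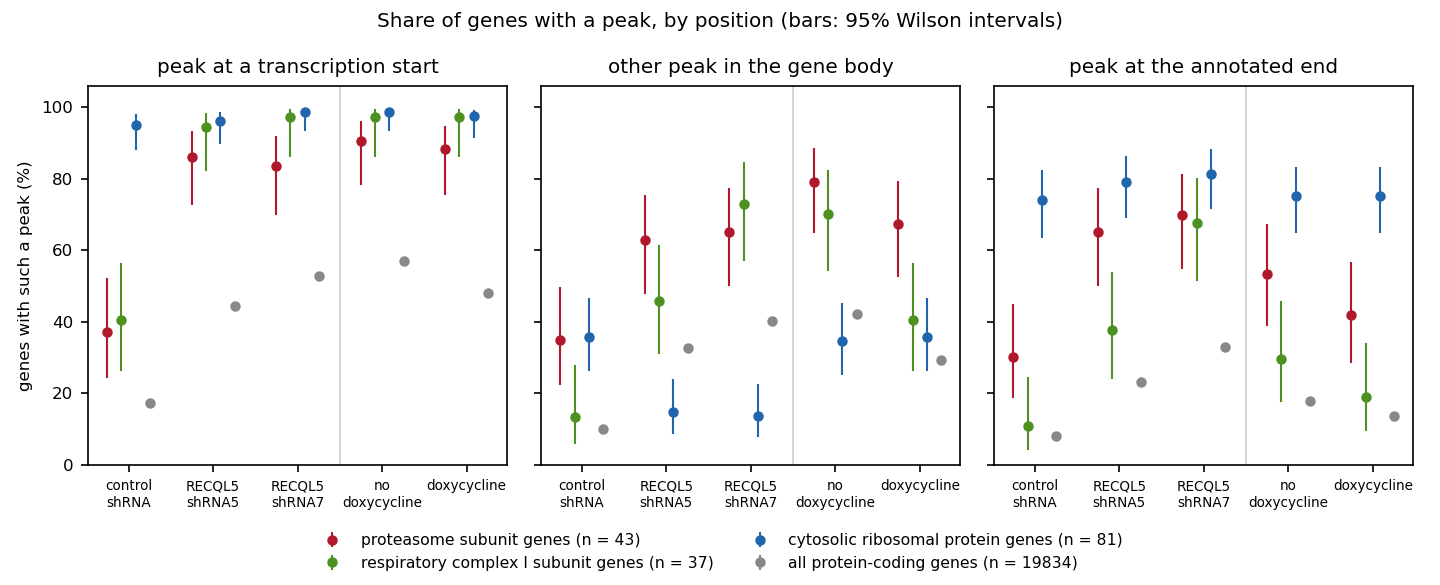
Share of genes (%, y axis) with a peak at a transcription start, elsewhere in the gene body or at the annotated end, in the 5 peak lists (x axis), for 43 proteasome, 37 complex I, 81 ribosomal protein and all 19834 protein-coding genes, with 95% Wilson intervals. The proteasome genes lay above all genes in every list and position, for example 37.2% against 17.2% at starts in the control list.

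Start peaks were present in all 5 lists in 13 members (30.2%, against 15.8% of all genes). A further 18 members had a start peak in every list but that of the control hairpin, PSMC4 and PSMD8 in every list but that of shRNA7, and PSMB6 in every list but that of shRNA5. The genes PSMB10, PSMD3, PSMD13, PSME1 and PSME2 lacked one in 2 lists, PSMB9 lacked one in 3, and PSMA8, PSMB8 and PSMB11 had none in any list.

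**Figure D2:**
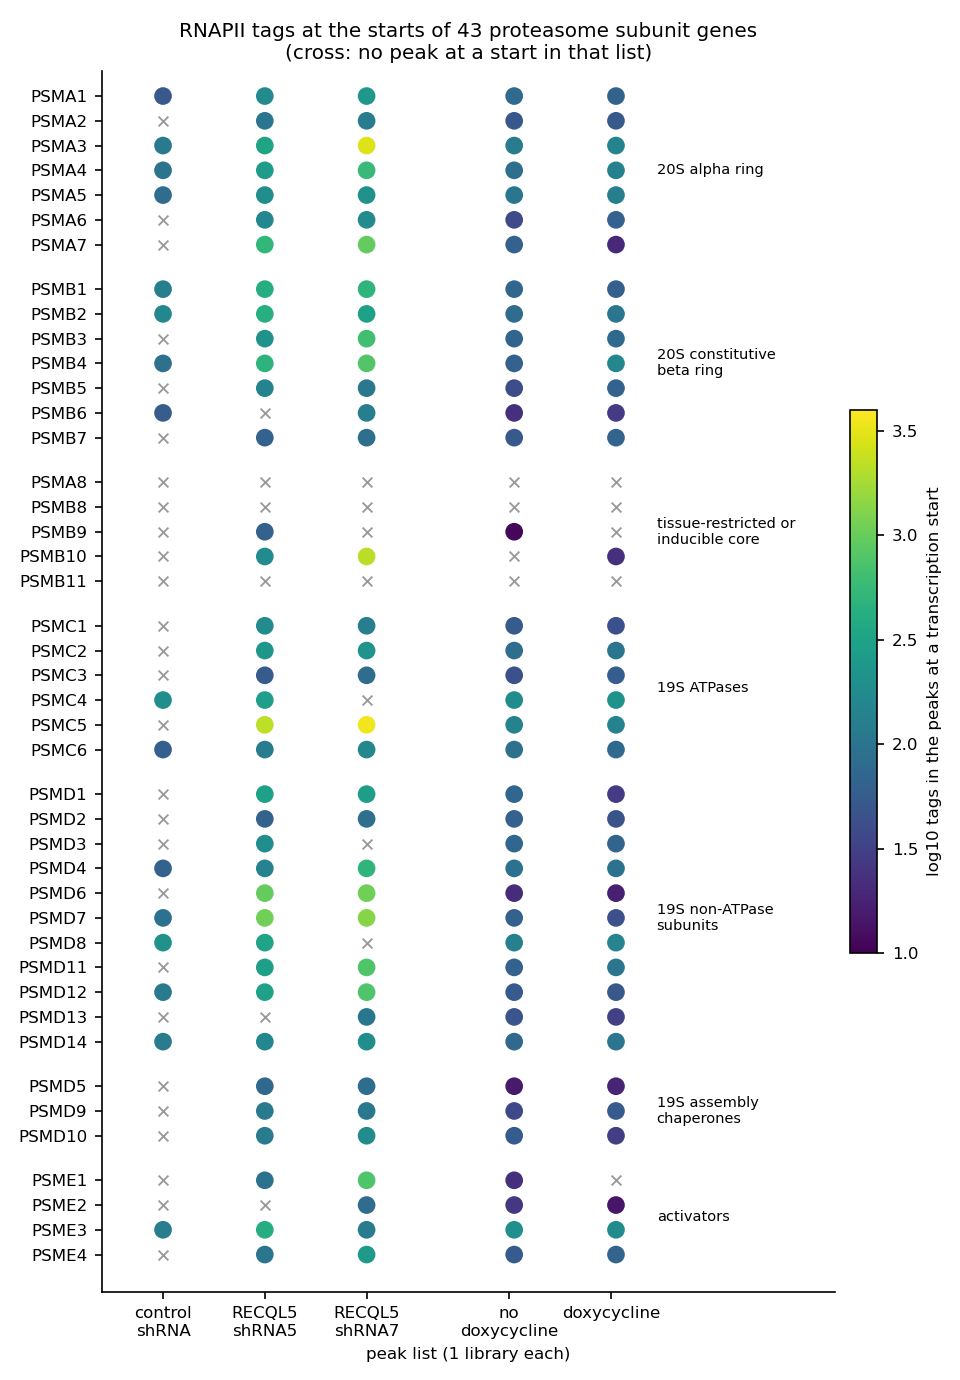
Tags (log10, color) in the peaks at a transcription start for each of the 43 genes (y axis, grouped by role) in the 5 peak lists (x axis), where a cross marks a gene with no such peak. Crosses filled most of the control column, in which 16 members had a peak, and PSMA8, PSMB8 and PSMB11 had crosses throughout.

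The 7 ubiquitous alpha subunits, which form the outer rings of the core and its gate, had a start peak in 4 genes with the control hairpin and in all 7 in each other list. PSMA3 held 115 tags with the control hairpin, 333 upon shRNA5, 2886 upon shRNA7 and, in the doxycycline arm, 121 without and 146 with the drug. The shRNA7 value came from peaks of 33612 bp in total, of which one of 30992 bp began 3465 bp downstream of the canonical start, touched an internal start and ran past the gene's end. The peaks over the canonical start alone held 115, 253 and 264 tags in the hairpin arm. For PSMA4 the tags were 98, 267 and 566 in the hairpin arm (control, shRNA5, shRNA7) and 87 and 137 in the doxycycline arm (without, with). PSMA5 followed with 81, 185 and 203 tags and with 104 and 128. In these 3 genes, as in PSMA1 (52, 173 and 240 tags), the order in the hairpin arm was control, shRNA5, shRNA7.

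PSMA2, PSMA6 and PSMA7 had no start peak with the control hairpin. Upon shRNA5 and shRNA7 they held 102 and 121, 155 and 171, and 511 and 963 tags, in that order of genes. The PSMA7 tags lay in peaks of 7753 and 10854 bp, the first of which ended 1001 bp downstream of the canonical start. Without and with doxycycline the tags were 51 and 52 for PSMA2, 38 and 62 for PSMA6, and 63 and 20 for PSMA7. PSMA7 was thus the alpha gene with the lowest count with the drug relative to that without it, also at its canonical start alone (40 and 20 tags). Its start peaks also touched the start of SS18L1, which is transcribed the other way, in the shRNA7 list and in both doxycycline-arm lists, and those of PSMA2 touched the start of MRPL32 wherever they were called.

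Among the 7 constitutive beta subunits, of which PSMB5, PSMB6 and PSMB7 are the catalytic ones, 4 had a start peak with the control hairpin, 6 upon shRNA5 and 7 in each other list. PSMB2 held 162, 423 and 311 tags in the hairpin arm and 81 and 102 without and with doxycycline. PSMB4 held 91, 477 and 784 tags and then 63 and 158. PSMB1 held 126, 420 and 488 tags and then 72 and 60. PSMB2 was the gene of these 3 with fewer tags upon shRNA7 than upon shRNA5, and each hairpin count exceeded the control.

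PSMB3, PSMB5 and PSMB7 had no start peak with the control hairpin. Their tags were 202 and 657, 147 and 110, and 62 and 86 upon shRNA5 and shRNA7, and 69 and 76, 39 and 64, and 52 and 68 without and with doxycycline. The PSMB3 peak upon shRNA7 was 8294 bp long and also touched the start of PCGF2, so its 657 tags cannot be assigned to PSMB3 alone. In both hairpin lists and without doxycycline the summit of the PSMB3 peak lay more than 500 bp from a start. PSMB6 lacked a peak in the shRNA5 list only, with 57 tags in the control list, none upon shRNA5, 127 upon shRNA7 and, in the doxycycline arm, 23 without and 28 with the drug. The catalytic genes therefore held few tags next to PSMB1, PSMB2 and PSMB4 in the hairpin lists.

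The interferon-induced and tissue-restricted core genes stood apart. PSMB8, an immunoproteasome subunit, PSMB11, the thymus subunit, and PSMA8, the testis alpha subunit, had no start peak in any of the 5 lists. PSMA8 had 1 gene-body peak in 3 lists, with 39 tags upon shRNA7 and, in the doxycycline arm, 18 without and 13 with the drug, and those peaks began at least 33.9 kb into the gene. PSMB9 had a start peak of 62 tags upon shRNA5 and of 11 tags without doxycycline, and both peaks also touched the start of TAP1, its divergent neighbor.

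PSMB10, the third immunoproteasome subunit, was the exception in this group. It had no start peak in the control or the no-doxycycline list and held 176 tags upon shRNA5, 2124 upon shRNA7 and 23 with doxycycline. The doxycycline peak lay 624 to 1460 bp downstream of the canonical start, which alone had no peak in that list. The shRNA7 peak was 27425 bp long over a gene of 2359 bp and also touched the starts of CTRL and LCAT, so its tags cannot be assigned to PSMB10 alone.

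The 6 ATPases of the 19S base had a start peak in 2 genes with the control hairpin, 6 upon shRNA5, 5 upon shRNA7 and 6 in each doxycycline-arm list. PSMC5 had no start peak in the control list. It held 2214 tags upon shRNA5, 3470 upon shRNA7 and, in the doxycycline arm, 144 without and 143 with the drug. Its hairpin peaks were 23593 and 32625 bp long, covered the whole gene and touched the starts of FTSJ3 and SMARCD2. PSMC4 held 188 tags with the control hairpin and 283 upon shRNA5, had no peak upon shRNA7, and held 178 and 211 in the doxycycline arm. These genes had the highest counts of the ATPases in the doxycycline lists, in which their levels changed little.

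PSMC1, PSMC2 and PSMC3 had no start peak with the control hairpin. PSMC2 held 228 and 216 tags upon shRNA5 and shRNA7, PSMC1 held 170 and 125, and PSMC3 held 54 and 82. In the doxycycline arm the tags without and with the drug were 87 and 105, 54 and 43, and 43 and 57 in the same order. At the canonical start alone PSMC2 held 121 and 104 tags upon shRNA5 and shRNA7, and 43 and 54 in the doxycycline arm. PSMC6, the remaining ATPase, had a start peak in all 5 lists with 60 to 162 tags.

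Of the 11 non-ATPase cap subunits, 5 had a start peak with the control hairpin, 10 upon shRNA5, 9 upon shRNA7 and 11 in each doxycycline-arm list. PSMD7, a scaffold of the lid, held 94 tags in the control list, 1094 upon shRNA5, 1330 upon shRNA7 and, in the doxycycline arm, 64 without and 43 with the drug. The hairpin peaks of PSMD7 were 13135 and 15387 bp long and covered the whole gene. PSMD14, the deubiquitinase of the lid, held 117, 156 and 185 tags in the hairpin arm and 73 and 103 in the doxycycline arm. Among the 15 members with a start peak in both lists it had the lowest shRNA5 ratio over the control. PSMD4, a ubiquitin receptor, and PSMD12 also had start peaks in all 5 lists, with 64 to 489 and 51 to 761 tags. The highest PSMD4 count, upon shRNA7, was 214 at the canonical start alone.

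PSMD8, a lid subunit, held 200 tags with the control hairpin and 324 upon shRNA5 and had no peak upon shRNA7. In the doxycycline arm it held 133 and 149. Its lid partner PSMD3 had a start peak upon shRNA5 (190 tags) and not with the control hairpin or upon shRNA7, and held 72 and 69 in the doxycycline arm. PSMD13, also of the lid, had a start peak upon shRNA7 (104 tags) and in the doxycycline arm (47 and 32) only. PSMD8 and PSMD3 hence lacked a start peak upon shRNA7, and PSMD13 lacked one upon shRNA5.

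PSMD1, PSMD2, PSMD6 and PSMD11 had start peaks in every list but that of the control hairpin. PSMD6 held 974 and 1080 tags upon shRNA5 and shRNA7, in peaks of 17763 and 16916 bp that ended 2176 and 2932 bp downstream of the canonical start and touched an internal one, against 21 and 17 without and with doxycycline. For PSMD11 the tags were 285 and 757 with the hairpins and 62 and 102 in the doxycycline arm. For PSMD1, the largest cap subunit, they were 291 and 276 and then 70 and 28. PSMD2, its partner in the base, held 66 and 88 and then 63 and 46. Most of the hairpin tags of PSMD1 lay at an internal start, and its canonical start alone held 52 and 61 tags. PSMD6 and PSMD11 thus held more tags upon shRNA7 than upon shRNA5, while the order for PSMD1 depended on which start was counted.

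The 3 assembly chaperones of the cap, PSMD5, PSMD9 and PSMD10, had no start peak with the control hairpin and had one in each other list. PSMD5 held 74 and 83 tags upon shRNA5 and shRNA7 and 15 and 18 without and with doxycycline. PSMD9 held 115 and 108 and then 37 and 54. PSMD10, known as gankyrin, held 120 and 171 and then 56 and 29. Their median counts lay below those of the cap subunits in each list where they had a peak, and the PSMD10 peaks touched the start of ATG4A.

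The activators attach to the ends of the core in place of the 19S cap. PSME3, which encodes the nuclear PA28 subunit, held 124, 410 and 120 tags in the hairpin arm and 197 and 178 in the doxycycline arm, in peaks that also touched the start of BECN1. These counts join an upstream start with the canonical one, and the canonical start alone held 124, 323 and no tags in the hairpin arm and 127 and 144 in the doxycycline arm. PSME1 and PSME2, the interferon-induced PA28 subunits, had no start peak with the control hairpin. PSME1 held 96 tags upon shRNA5, 767 upon shRNA7, 23 without doxycycline and none with it. PSME2 held none upon shRNA5, 82 upon shRNA7, and 26 and 14 in the doxycycline arm. PSME4, which encodes PA200, had no start peak in the control list. It held 103 and 257 tags upon shRNA5 and shRNA7 and 54 and 68 in the doxycycline arm. The shRNA7 peak of PSME1 was 7934 bp long, ran past the gene and touched the start of EMC9. Its summit lay 5291 bp downstream of the nearest start, past the end of this gene of 2805 bp. The same peak was also counted as the gene-body peak and the end peak of PSME2, so its 767 tags cannot be assigned to PSME1 alone. The lists of the hairpins thus differed for PSME2, called upon shRNA7 and not shRNA5, and for the canonical start of PSME3, called upon shRNA5 and not shRNA7.

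Upon RECQL5 knockdown, more proteasome genes had a start peak than with the control hairpin, and most of those with one in both lists held more tags. Both hairpin lists and not the control list held a start peak for 20 of the 43 genes (46.5%), against 25.9% of all genes. Of the 31 members with a start peak in the other 4 lists, 18 (58.1%) lacked one in the control list, and the share over all such genes was 58.3%. These shares were close to each other.

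In the 15 members with a start peak in both lists, the ratio of tags upon shRNA5 to the control had a median of 2.62 and ran from 1.33 in PSMD14 to 11.6 in PSMD7. The median over the 3396 genes with such peaks was 2.14. The ratio was at least 2 in 12 of the 15 members (80.0%), against 56.8% of all genes. Upon shRNA7 the median over 14 members was 4.24, with a range from 0.968 in PSME3 to 25.1 in PSMA3, and 3.73 over 3211 genes. Both extremes rested on peaks away from the canonical start. It was at least 2 in 11 of the 14 (78.6%), against 89.5% of all genes, and PSMB2 (1.92), PSMD14 (1.58) and PSME3 were the exceptions.

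Where the summit had to lie in the start window, the shRNA7 median over members was 2.70 in place of 4.24. With the canonical start alone the medians were 2.28 over 15 members upon shRNA5 and 3.34 over 13 upon shRNA7, with ranges of 1.33 to 11.6 and of 1.58 to 14.1, and the PSMA3 ratio upon shRNA7 was 2.30 (95% interval 1.84 to 2.86). Such counts still hold all tags of a peak that touches the canonical window. Both highest ratios were those of PSMD7, whose peaks upon shRNA5 and shRNA7 had summits 9126 and 8877 bp downstream of the nearest start. Peak length moved with these ratios. The median length of start peaks in members was 1817 bp with the control hairpin, 3042 bp upon shRNA5 and 3405 bp upon shRNA7. Over all genes it was 1753, 2139 and 2683 bp in the same order. Start peaks over 10 kb in total length were found in no member, 3 members and 8 members, respectively. Per kb of peak, the median ratio over members was 1.29 upon shRNA5 and 1.38 upon shRNA7, next to 1.33 and 1.55 over all genes. The ratio per kb was above 1 in 13 of 15 and in 13 of 14 members, next to 3198 of 3396 and 3118 of 3211 genes. For PSMD7 the shRNA5 ratio of 11.6 (95% interval 9.43 to 14.4, counting error only) became 1.74 per kb, and for PSMA3 the shRNA7 ratio of 25.1 (interval 20.8 to 30.2) became 1.36 per kb. The highest-scoring start peak had its summit within 500 bp of a start in all 16 members with the control hairpin, in 31 of 37 upon shRNA5 and in 29 of 36 upon shRNA7. These summit counts and those of start peaks over 10 kb were not made over all genes.

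**Figure D3:**
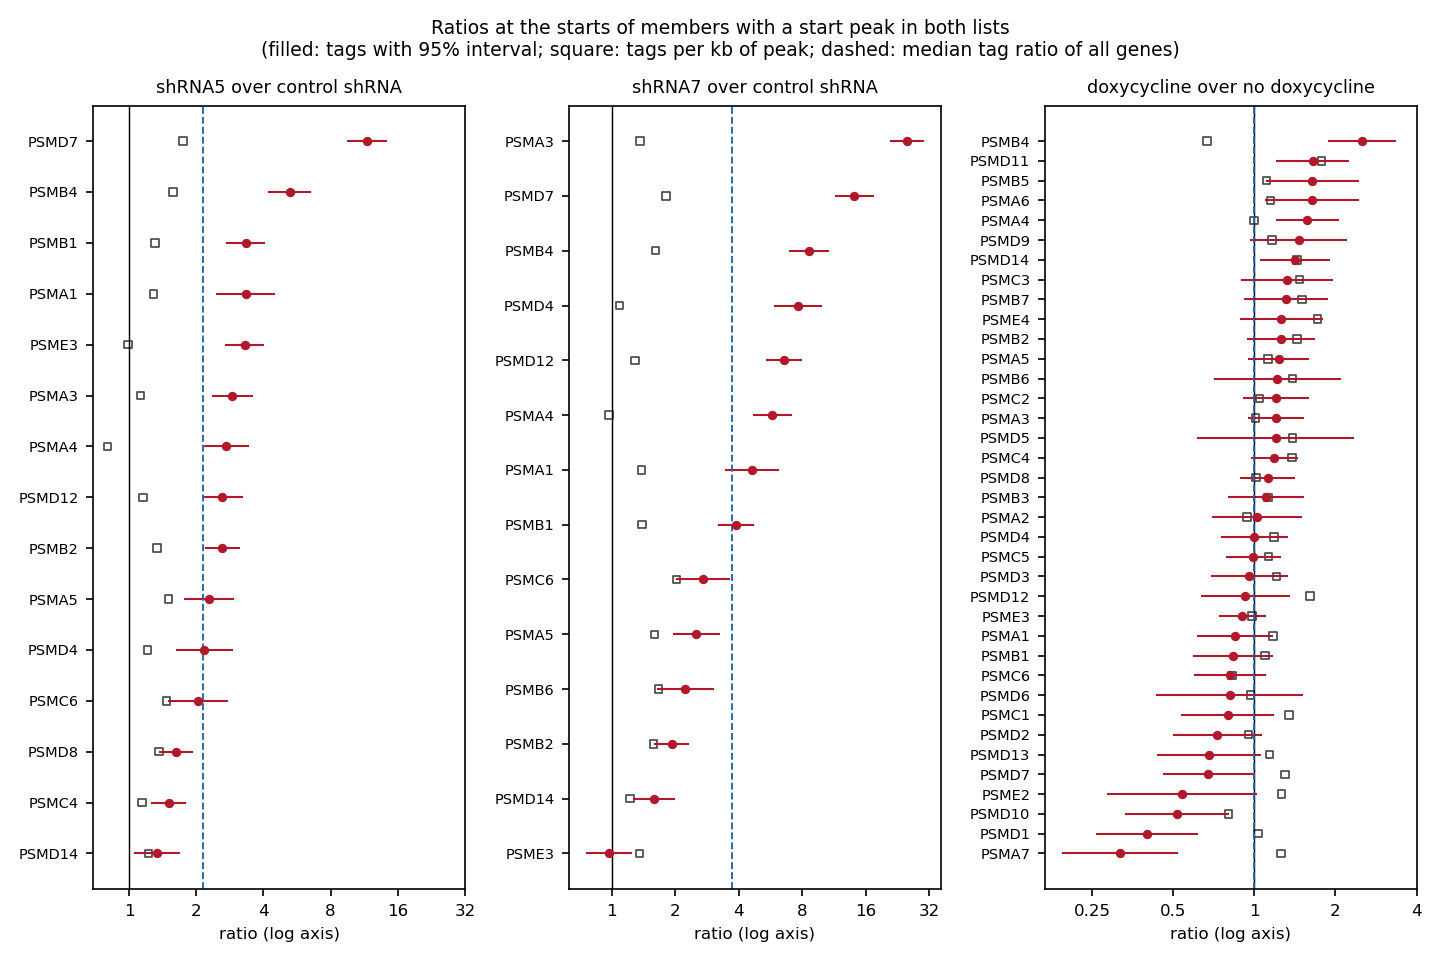
Ratio of tags in start peaks (x axis, log scale) for each member with a start peak in both lists (y axis), with 95% intervals for counting error (filled) and the ratio per kb of peak (open squares), beside the median over all genes (dashed line). The ratios reached 11.6 upon shRNA5 and 25.1 upon shRNA7, whereas per kb the medians were 1.29 and 1.38.

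PSMC4 and PSMD8, both on chromosome 19, were called in every list but that of shRNA7. PSMC4 (chr19:40477072-40487671, plus strand) had 433 tags in 1 gene-body peak with the control hairpin, 1367 in 2 upon shRNA5, 258 in 5 without doxycycline and 396 in 4 with it. PSMD8 (chr19:38865203-38874490, plus strand) had 371 tags in 1 gene-body peak with the control hairpin, 951 in 1 upon shRNA5, 269 in 4 without doxycycline and 324 in 3 with it. Neither gene had a peak of any kind upon shRNA7, in a list whose smallest peak held 26 tags.

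The nearest shRNA7 peak lay 12.2 kb from PSMC4 and 23.9 kb from PSMD8. Within 60 kb of PSMC4 there were 2 shRNA7 peaks, against 3 in the control list and 7 upon shRNA5. Around PSMD8 there were 2, against 3 and 4. Of the genes with a start peak in the other 4 lists, 2 of 15 members (13.3%) and 193 of 3332 genes (5.79%) lacked one upon shRNA7. On chromosome 19 it was 55 of 283 genes (19.4%). Genes of chromosome 19 also lacked a start peak upon shRNA5 alone more often than all genes did (6 of 234, 2.56%, against 0.349%), so this was not seen for shRNA7 only.

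PSMD3 on chromosome 17 (chr17:38137060-38154212, plus strand) also had no peak upon shRNA7, and its nearest shRNA7 peak lay 18.5 kb away. The control list had none within 38.9 kb of it. PSMB6, on the same chromosome (chr17:4699439-4701797, plus strand), had no peak upon shRNA5, with the nearest 4.96 kb away. Such an absence upon shRNA5 alone was found in 1 of 14 members and in 11 of 3150 genes.

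**Figure D4:**
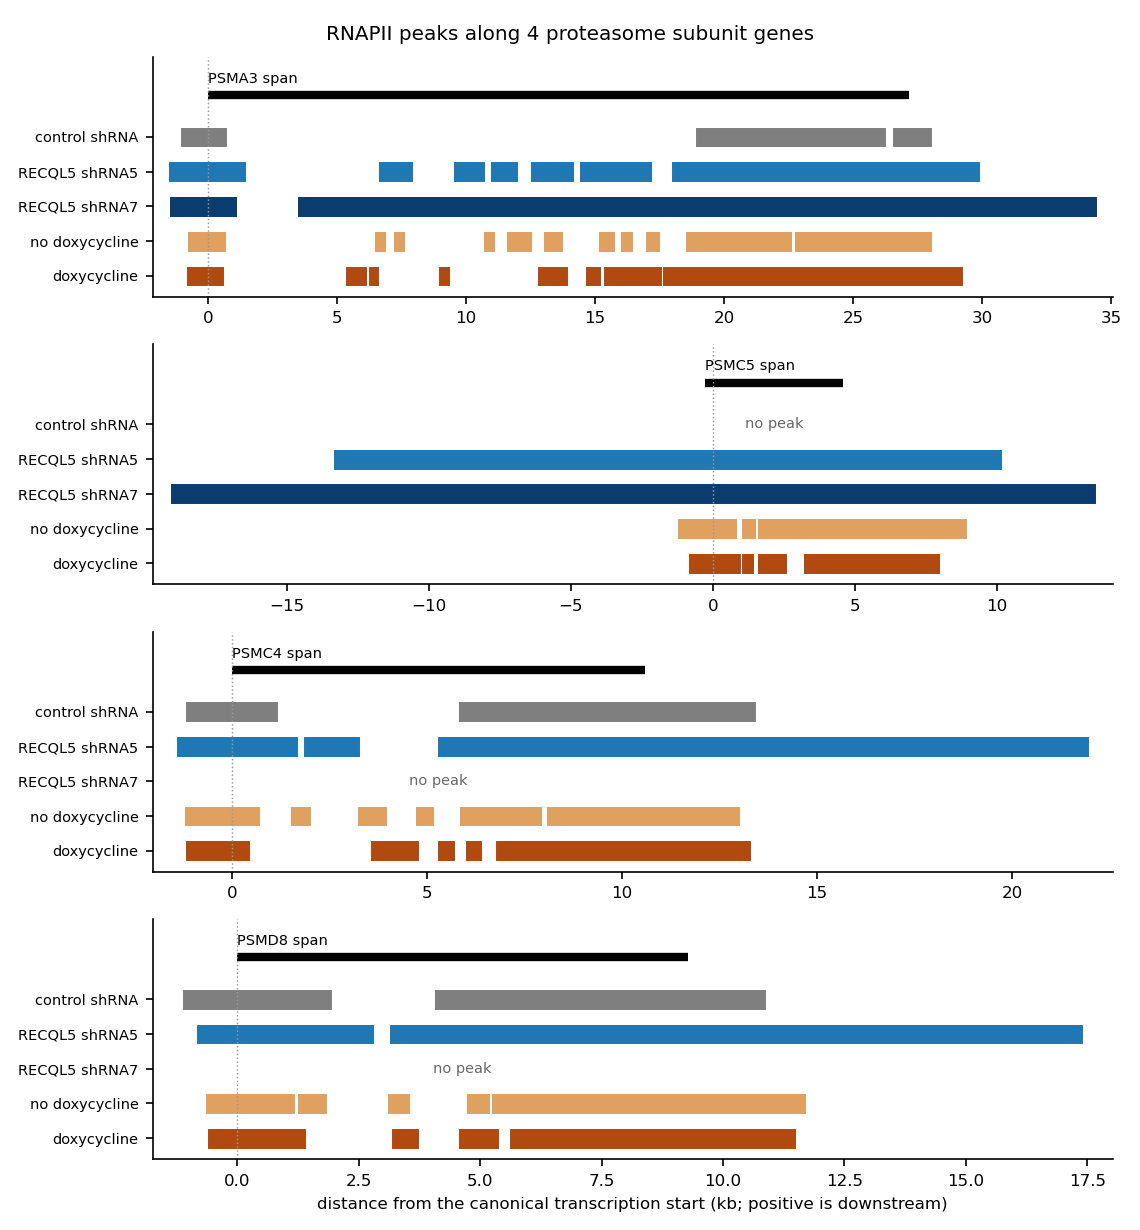
Extent of the RNAPII peaks of each list along PSMA3, PSMC5, PSMC4 and PSMD8 (x axis, distance from the canonical start in kb; rows, the 5 peak lists; black bar, the gene's span). The shRNA7 peaks spread to 30992 bp at PSMA3 and 32625 bp at PSMC5, and PSMC4 and PSMD8 had none in that list.

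Peaks elsewhere in the gene body were present in 15 members with the control hairpin, 27 upon shRNA5 and 28 upon shRNA7, against 10.1%, 32.7% and 40.3% of all genes (34.9%, 62.8% and 65.1% of members). Without doxycycline 34 members (79.1%) had one and with it 29 (67.4%), against 42.1% and 29.4% of all genes. With a minimum fold enrichment of 10, 10 members had a gene-body peak with the control hairpin, 7 upon shRNA5 and 14 upon shRNA7, so that the order of the control and shRNA5 lists turned. At a false discovery rate of at most 5% these counts were 15, 27 and 22, so that the order of the shRNA5 and shRNA7 lists turned. The comparisons of peak number that follow use all deposited peaks. More gene-body peaks than in the control were called in 25 members and fewer in 3 upon shRNA5, and more in 23 and fewer in 7 upon shRNA7. Over all genes these numbers were 5729 and 396 upon shRNA5, and 7386 and 730 upon shRNA7. With doxycycline, more were called in 10 members and fewer in 21 than without it, next to 1820 and 5751 of all genes.

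Single genes spread widely around these counts. PSMD1 had none with the control hairpin, 5 upon shRNA5, 12 upon shRNA7 and, in the doxycycline arm, 17 without and 10 with the drug. PSMD11 had 2, 5 and 1 in the hairpin arm and 14 and 18 in the doxycycline arm. PSMB7 had none, 5 and 6, and then 12 and 15. Most of the shRNA7 gene-body peaks of PSMD1 and PSMB7 had a false discovery rate above 5%, up to 17.75% and 14.4%. Upon shRNA5 it was at most 1.43% and 1.62%. At a limit of 5% neither of these genes had more gene-body peaks upon shRNA7 than upon shRNA5. For PSMD11 the drop upon shRNA7 went with a start peak that had grown to 12338 bp. PSME4, which had none with the control hairpin, had 3 and 8 upon shRNA5 and shRNA7, and 13 and 4 in the doxycycline arm.

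The share of a gene's span under peaks, which depends less on how peaks are split, had a median over the 43 genes of 1.42% with the control hairpin, 22.8% upon shRNA5 and 33.5% upon shRNA7. It was larger than in the control in 37 members and smaller in 1 (PSMB6) upon shRNA5, and larger in 36 and smaller in 3 upon shRNA7 (PSMC4, PSMD8 and PSME3). Over all genes the medians were 0%, 0.353% and 2.03%, with 9902 genes larger and 174 smaller upon shRNA5, and 11613 and 253 upon shRNA7. In the doxycycline arm the median was 11.9% without and 14.3% with the drug, while the share was smaller with the drug in 30 members and larger in 11. Over all genes it was smaller with the drug in 9329 and larger in 3236.

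**Figure D5:**
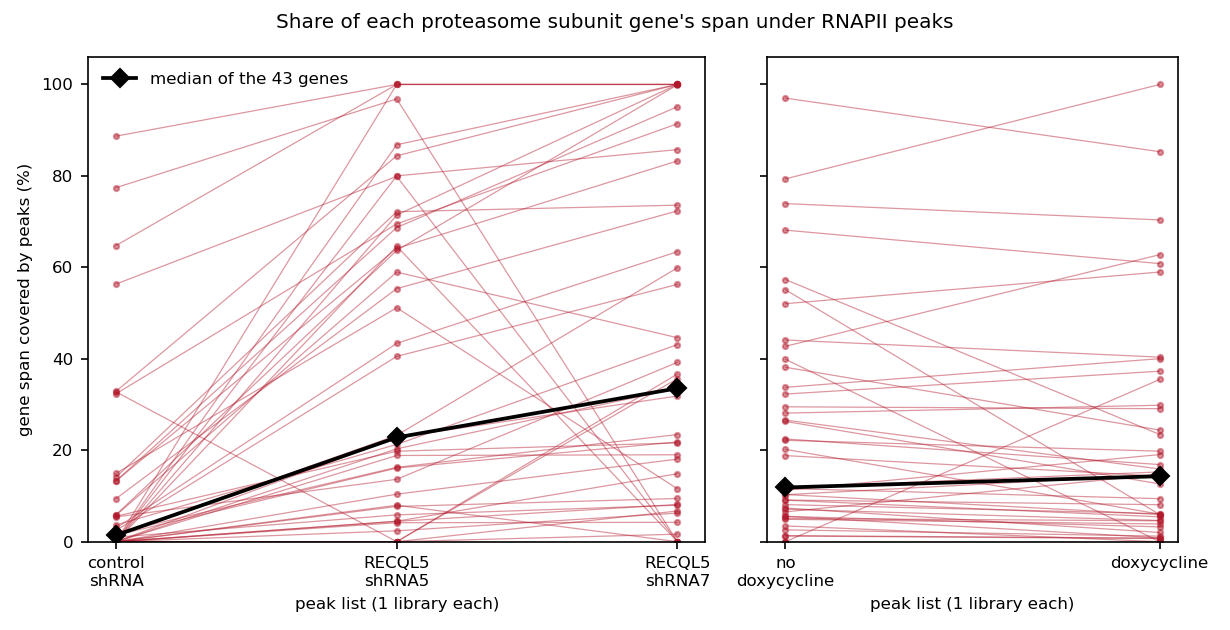
Share of each gene's span under RNAPII peaks (%, y axis) in the hairpin arm and the doxycycline arm (x axis, peak lists), with a line for each of the 43 genes and diamonds for their median. The median was 1.42% with the control hairpin and 33.5% upon shRNA7, and lines fell to 0 upon shRNA7 for PSMC4, PSMD8, PSMD3 and PSMB9.

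Peaks at the annotated end of the gene, within 500 bp of its last base, were examined after the start and body values were seen. They were present in 13 members (30.2%) with the control hairpin, 28 (65.1%) upon shRNA5 and 30 (69.8%) upon shRNA7. In the doxycycline arm 23 (53.5%) had one without the drug and 18 (41.9%) with it. The shares over all genes were 7.96%, 23.2%, 33.0%, 17.9% and 13.7%. In 7 members, PSMA3, PSMA7, PSMB3, PSMB4, PSMC1, PSMC3 and PSMD7, an end peak was present in all 5 lists, and in 8 in none.

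PSMC4 had the highest end count of the control list (433 tags, against 188 at the start), with 1297 upon shRNA5 and 153 and 327 without and with doxycycline. PSMA3 held 67 tags at its end with the control hairpin, 1138 upon shRNA5, 2622 upon shRNA7 and, in the doxycycline arm, 209 without and 731 with the drug. For PSMB3 the end counts were 100, 370 and 1073, and then 57 and 13. Per kb of peak the end counts without and with doxycycline were 39.0 and 62.7 for PSMA3 and 27.7 and 29.6 for PSMB3, so the lower PSMB3 count went with a shorter peak. In the shRNA7 list 9 of the 30 end peaks were also the start peak of the same gene, against none in the control list. Over all genes it was 1328 of 6553 in the shRNA7 list and 300 of 1578 in the control list. Where the summit rather than any base had to lie in the window, 6 members had an end peak with the control hairpin, 7 upon shRNA5, 4 upon shRNA7 and 14 without doxycycline.

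Between the doxycycline lists the start peaks of proteasome genes differed little. A start peak was present in both lists in 37 members, and the ratio of tags with the drug to those without it had a median of 1.10, from 0.317 in PSMA7 to 2.51 in PSMB4. The median over 9320 genes was 1.00, and per kb of peak the medians were 1.15 over members and 1.14 over all genes. The ratio was above 1 in 20 members and below 1 in 16, and PSMD4 held 94 tags in each list. Over the 9320 genes it was above 1 in 4454 and below 1 in 4656.

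With doxycycline, PSMA4 (ratio 1.57), PSMA6 (1.63), PSMB4 (2.51), PSMB5 (1.64) and PSMD11 (1.65) held at least 1.5 times the tags without it, which is 5 of 37 (13.5%) against 12.7% of all genes. PSMA7 (0.317), PSMD1 (0.40), PSMD10 (0.518) and PSME2 (0.538) were lower by at least that factor, which is 4 of 37 (10.8%) against 16.7% of all genes. At the canonical start alone PSMA7 had a ratio of 0.50 (0.294 to 0.850). The counting intervals left out a ratio of 1 for PSMA7 (0.193 to 0.522), PSMD1 (0.259 to 0.618) and PSMB4 (1.87 to 3.36), among others, and for PSME2 they did not (0.284 to 1.02). Per kb of peak the ratio lay on the other side of 1 for PSMB4 (0.668), PSMA7 (1.26), PSMD1 (1.03), PSME2 (1.26) and, barely, PSMA4 (0.999), while PSMD11 (1.77) and PSMD10 (0.802) kept their side. Only PSMB10 had a start peak with the drug and none without it, and PSMB9 and PSME1 the reverse. Over all genes 236 had a start peak with the drug only and 1971 without it only. The PSMB10 peak with the drug did not reach the window of the canonical start.

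Subunit genes of other large complexes were set beside the proteasome genes. The ribosomal protein genes had a start peak in 77 of 81 (95.1%) with the control hairpin and in 78 to 80 in each other list, with medians of 537 tags in the control list and 1615 upon shRNA7. The proteasome genes with a start peak had medians of 106.5 and 228 tags in those lists. Start peaks of ribosomal protein genes were longer, with medians of 6641 and 11090 bp against 1817 and 3405 bp in proteasome genes. Per kb of peak the medians were 79.5 and 137 tags against 54.3 and 68.2. Subunit genes of respiratory complex I were closer, with 15 of 37 (40.5%) in the control list and 35 or 36 in each other list, and medians of 75 and 167 tags. Gene-body peaks were found with the control hairpin in 5 of the 37 complex I genes (13.5%, interval 5.91% to 28.0%) and in 15 of the 43 proteasome genes (34.9%, interval 22.4% to 49.8%). Upon shRNA7 the order was the other way, with 27 of 37 (73.0%) and 28 of 43 (65.1%).

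Of 26 genes listed as proteasome assembly factors, regulators and ubiquitin genes, 16 had a start peak with the control hairpin, 25 upon shRNA5 and 26 in each other list. The transcription factor gene NFE2L1 held 173 tags with the control hairpin, 405 upon shRNA5, 2632 upon shRNA7 and, in the doxycycline arm, 184 without and 154 with the drug. Its relative NFE2L2 held none, 398 and 715, and then 207 and 168. PSMG1, which encodes an assembly chaperone of the core, held 223, 629 and 1672, and then 101 and 126. POMP, which encodes the chaperone of core maturation, held none, 60 and 74, and then 37 and 39. In these 4 genes the hairpin order was the same as in PSMA1, and the median ratio over the 16 listed genes with a control peak was 2.34 upon shRNA5 and 4.25 upon shRNA7. Per kb of peak these medians were 1.28 and 1.42, next to 1.33 and 1.55 over all genes.

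Some of the members share their peaks with neighbors. An opposite coding start lay within 1 kb of the canonical start in 11 of the 43, and 12 overlapped another coding gene. The start peaks touched another gene's start in 2 of 16 members with the control hairpin, 9 of 37 upon shRNA5, 14 of 36 upon shRNA7, 11 of 39 without doxycycline and 10 of 38 with it. The same counts over all genes were not made, so whether the members differ from other genes in this is not known. Beside the genes named above, start peaks touched another start in PSMA1 (PDE3B), PSMB1 (TBP), PSMC2 (DNAJC2), PSMD13 (SIRT3), PSME2 (RNF31) and PSME4 (ACYP2). In those genes the tags cannot be divided between the genes.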

How the data were processed

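RNAPII ChIP-seq peak lists of 5 groups, 1 library each, were analyzed, out of 9 samples, of which 4 were IgG libraries. Per the submitters' processing notes, reads were processed with CASAVA 1.8, aligned with Bowtie 0.12.7 to hg19 (the coordinates of GRCh37) and peaks were called with MACS 1.4.2. The deposited lists give, for each peak, the tag count, which the authors did not normalize, a significance score (−10 times the log10 of the p-value, made by the authors), the authors' ratio of fold enrichment over background, and a deposited false discovery rate in percent. Other columns, length and summit, locate the peak. The methods state similar read numbers for compared samples. The total of each library was not used, so tags were not scaled, and intervals cover counting error only.

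Members were the protein-coding genes of GENCODE release 44, lifted to GRCh37, that matched the symbol rule. Peaks over the gene span widened by 500 bp were split into start peaks (any base within 500 bp of the start of a protein-coding transcript) and gene-body peaks, and tags were summed. Shares have 95% Wilson intervals. Tag ratios within an arm have the interval of the corresponding proportion, turned into odds. With 1 library per group no test was run. The same counts over all 19834 genes are given beside those of the members where they were made.

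The members, gene lists and comparisons were chosen with earlier results of these data known. Values in all lists were written out for members with a start peak in all lists that ranked among the 3 with most tags in their subfamily, for inducible and tissue-restricted members, and for members whose start peak was absent from 1 or 2 lists. Others were given by range and count. Promoters were to be shown for the member with the highest rank of each subfamily, PSMA8 and PSMB9; those of PSMC5 and PSME3 lay within exons and were not printed. Alternatives were peaks with a score of at least 100, an FDR of at most 5% or a fold enrichment of at least 10, a start window of 1 kb, the longest transcript only, the summit in place of any overlap, leaving out peaks that touch another coding start, merging peaks under 1 kb apart and, added after the data were seen, the canonical start only. The assignment of peaks was tested on simulated peaks, with python 3.11.15, scipy 1.17.1 and numpy 2.4.6.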

Additional observations from a re-analysis of the deposited data

Results flagged for a closer look

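In 4 members the tags in start peaks were higher than the control in the list of one hairpin and lower in that of the other. PSMC4 held 188 tags with the control hairpin, 283 upon shRNA5 and 0 upon shRNA7. PSMD8 held 200, 324 and 0 tags in the same order. PSMB6 held 57, 0 and 127 tags, and PSME3 held 124, 410 and 120. Each value is that of 1 library and the difference between the hairpins was not tested. For PSME3 the 124 control tags lay over the canonical start and the 120 shRNA7 tags at an upstream start, so they do not compare 1 start. The canonical start held 323 tags upon shRNA5 and had no peak upon shRNA7.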

How the results depend on the processing

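The 18 values recomputed were the members with a start peak, a gene-body peak and an end peak in each list and the 3 median tag ratios, under 8 alternatives each, and all but the end peaks also with the canonical start only. Of the 157 recomputed values, 145 stayed within 1.5 times the count given or, for a median ratio, within the 95% order-statistic interval of the median over members, and 12 counts did not. Within its interval, the shRNA7 median ratio moved from 4.24 to 2.70 with the summit in the window. The shRNA7 count of members with a gene-body peak moved from 28 to 22 at an FDR of at most 5%. That is below the 27 upon shRNA5, which did not move. At a minimum score of 100, the control list had 8 members with a start peak, 9 with a gene-body peak and 8 with an end peak. With a fold enrichment of at least 10, 10 members had a gene-body peak with the control hairpin, 7 upon shRNA5 and 14 upon shRNA7, which turned the order of the control and shRNA5 lists, and end peaks were left in 8 members with the control hairpin, 12 upon shRNA5 and 11 with doxycycline. With the summit in the window, end peaks were left in 6 members with the control hairpin, 7 upon shRNA5, 4 upon shRNA7 and 14 without doxycycline. These settings keep fewer peaks by construction. The end peaks with their alternatives, and the count at the canonical start only, were added after the data were seen. Depth limits what can be said of an absent peak, since a list shows only peaks that passed the caller. No replicate could be left out. No paired analysis was possible because every group consists of 1 library.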
